A study of Homo sapiens with 6 samples.

Results

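The metallothionein genes were examined in Huh7, a human hepatocellular carcinoma cell line, before and after it had become resistant to lenvatinib, an oral inhibitor of several receptor tyrosine kinases. The members were the 10 rows of the expression table whose gene name was MT1A, MT1E, MT1F, MT1G, MT1H, MT1M, MT1X, MT2A, MTF1 or SLC30A1, of 26184 genes and loci in all. The first 8 encode metallothioneins, MTF1 encodes their transcription factor and SLC30A1 encodes a zinc exporter. The RNA of 6 samples was sequenced, 3 from each line. Huh7 P is the parental line, labelled wild type, untreated and at time 0. Huh7 LR is a single lenvatinib-resistant line raised from it by exposure to lenvatinib from 1 to 20 μM over 10 months and then kept in 20 μM lenvatinib. Whether the drug was in the medium when RNA was taken is not stated. The effects of the drug, of long culture and of selection within this line cannot be told apart.

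Metallothioneins are small proteins rich in cysteine that bind zinc, copper and cadmium. Liver is known for strong metallothionein expression. When free zinc rises, MTF1 binds metal response elements before the metallothionein genes and before SLC30A1 and raises their transcription, and SLC30A1 then carries zinc out of the cell across the plasma membrane. Glucocorticoids and interleukin-6 are also known inducers of metallothioneins in liver cells.

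The metallothionein genes were barely detected in both lines, and the zinc exporter rose in Huh7 LR cells. The 8 metallothionein genes together had 515 counts over the 6 libraries, which was 0.000128% of all counts. SLC30A1 was 1.76-fold higher in Huh7 LR than in Huh7 P cells (95% confidence interval 1.55 to 1.99, n = 3 per line), and MTF1 did not pass the test. Of the 10 members, 5 had enough counts to be tested (MT1F, MT1X, MT2A, MTF1 and SLC30A1), of which 1 was higher and 0 were lower at an adjusted p under 0.05 by edgeR's quasi-likelihood test. At this threshold 45.7% of the 17531 genes and loci tested differed in either direction, 23.3% higher and 22.4% lower. DESeq2 gave an adjusted p to 6 members, with 1 higher and 0 lower, and 0 members were lower at an unadjusted p under 0.05 by edgeR. The median log2 fold change of the 5 members tested was -0.48, and that of all features tested was 0.00. In bulk samples such as these, fewer cells expressing a gene and less RNA per cell cannot be told apart.

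The total of counted reads was 62738937 to 71427573 in the Huh7 P libraries and 63233655 to 70768720 in the Huh7 LR libraries. Where a library had 0 counts of a gene, up to 3 counts could have been missed, or 0.0418 to 0.0486 CPM (counts scaled to the library total), and this limit covers counting error only. The CPM levels include TMM factors. Levels were ranked between genes only in FPKM, which is also scaled by transcript length. Shares of a summed count or CPM were not scaled by length. All 8 hepatocyte markers were tested, and 4 of them were higher in Huh7 LR and 0 lower. Their summed level was 43500 to 52590 CPM in Huh7 P and 54990 to 58030 CPM in Huh7 LR. Most of it was AFP, with means of 22997 and 19620 CPM, and ALB, with means of 12951 and 21566 CPM. AFP leaned lower in Huh7 LR without passing edgeR's test (log2 fold change -0.23, adjusted p = 0.0923). Of 7 fibroblast markers, DCN and THY1 were at 0, and the 2 tested, COL1A1 and PDGFRB, rose. The sum was 2.16 to 2.28 CPM in Huh7 P and 5.02 to 8.02 CPM in Huh7 LR, most of it from COL1A1 and PDGFRB. COL1A2, LUM and COL3A1 were too low to be tested. COL1A2 had 16 parental against 3 resistant reads and LUM had 2 against 0. COL3A1 had 5 against 31, with 0 in Huh7 LR replicate 2. Of 6 leukocyte markers, HLA-DRA and TYROBP were at 0 and LYZ fell. The sum was 62.4 to 67.7 CPM in Huh7 P and 10.1 to 14.0 CPM in Huh7 LR. Most of it was LYZ, whose mean was 63.7 CPM in the parental and 9.19 CPM in the resistant line. CD14 (log2 fold change 0.53) and CD74 (0.52) leaned the other way without passing edgeR's test. PTPRC was too low to be tested, with 10 parental against 21 resistant reads. The part of these differences in the results was not tested.

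The 8 metallothionein genes lie within 76.0 kb of chromosome 16 (GRCh38, 56608199 to 56684196), in the order MT2A, MT1E, MT1M, MT1A, MT1F, MT1G, MT1H and MT1X. MT1G lies on the minus strand and the other 7 on the plus strand. MTF1 (chromosome 1, 37809567 to 37859620) and SLC30A1 (chromosome 1, 211571568 to 211578742) both lie on the minus strand. The bases before the transcription start are shown for the members whose promoter RefSeq gives (GRCh38.p14), since a metal response element there is the known link between MTF1 and these genes. Of the 10 members, 5 matched a RefSeq promoter, namely MT1H, MT1X, MT2A, MTF1 and SLC30A1. Capitals mark each match to the core of the metal response element, searched as TGCACNC or TGCGCNC on both strands, so that a match on the other strand reads GNGTGCA or GNGCGCA. The 2 patterns differ at the 4th letter, and no printed matches overlapped. The window is the 250 bases before the start, shortened for MT1X and MTF1 at the nearest annotated exon.
MT1H chr16:56669564-56669813 (+ strand): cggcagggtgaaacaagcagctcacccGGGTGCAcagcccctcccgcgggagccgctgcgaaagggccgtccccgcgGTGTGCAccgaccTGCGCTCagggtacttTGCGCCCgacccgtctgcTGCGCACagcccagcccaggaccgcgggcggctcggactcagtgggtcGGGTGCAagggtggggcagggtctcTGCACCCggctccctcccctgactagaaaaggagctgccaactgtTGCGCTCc
MT1X chr16:56682220-56682423 (+ strand): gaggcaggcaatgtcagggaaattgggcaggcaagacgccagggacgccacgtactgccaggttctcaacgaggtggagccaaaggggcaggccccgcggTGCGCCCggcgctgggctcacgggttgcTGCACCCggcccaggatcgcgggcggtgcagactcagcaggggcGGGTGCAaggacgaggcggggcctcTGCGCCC
SLC30A1 chr1:211579162-211579411 (- strand): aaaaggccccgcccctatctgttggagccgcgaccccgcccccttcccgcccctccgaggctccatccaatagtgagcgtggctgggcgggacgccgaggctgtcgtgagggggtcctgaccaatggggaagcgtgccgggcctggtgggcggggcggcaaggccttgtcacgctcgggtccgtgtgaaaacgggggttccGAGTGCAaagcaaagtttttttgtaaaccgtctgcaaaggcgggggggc
MTF1 chr1:37859621-37859842 (- strand): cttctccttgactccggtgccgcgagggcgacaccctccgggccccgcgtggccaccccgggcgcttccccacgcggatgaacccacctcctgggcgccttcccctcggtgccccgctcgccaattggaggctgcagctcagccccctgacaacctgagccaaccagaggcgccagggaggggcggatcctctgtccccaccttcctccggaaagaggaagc
The RefSeq window of MT2A lies inside an exon of a longer annotated transcript, and only short stretches around single matches are shown for it. The closing capital T of the stretch at 153 bases opens the next match, at 139 bases, which is not printed.
MT2A, 153 bases before the start, chr16:56608423-56608445 (+ strand): gagccgggTGCGCCCggcccagT
MT2A, 54 bases before the start, chr16:56608522-56608544 (+ strand): ggggctttTGCACTCgtcccggc
MT2A, 8 bases before the start, chr16:56608568-56608583 (+ strand): tgccgcgcTGCACTCc

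MT1H, which had 0 counts in every library, held the most matches among these promoters, 8 in 250 bases. MT2A held 7, at 246, 168, 153, 139, 88, 54 and 8 bases before the start, and MT1X held 4, at 150, 122, 78 and 53 bases. SLC30A1 held 1, at 49 bases before the RefSeq start, and MTF1 held 0. For SLC30A1 that start lies upstream of the annotated gene (minus strand, from 211578742), and the bases between them were not searched. Among 35116 RefSeq promoters of the same length, 24.8% held at least 1 match, 5.53% at least 2, 1.05% at least 3, 0.208% at least 4 and 0.0911% at least 5. The 5 promoters had a GC content of 66.4% to 73.2%, above the median of 58.0% over all promoters, and 20 to 32 CpG dinucleotides against a median of 11. A match describes the letters only and does not show that MTF1 bound there.

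MT2A, the form usually most abundant in human cells, had the highest metallothionein level in this table. It had 50, 58 and 48 counts in the parental libraries and 41, 44 and 30 in the resistant libraries. The Huh7 LR counts were lower without overlap, and so were the levels, 0.790 ± 0.131 CPM in Huh7 P and 0.566 ± 0.109 CPM in Huh7 LR (SD, n = 3). The log2 fold change of -0.48 (SE 0.29) did not pass edgeR's test (adjusted p = 0.206), and the 95% confidence interval of the fold was 0.459 to 1.12. An exact two-sided permutation test gave p = 0.1, the smallest that 3 against 3 samples allow. Its mean level over the 6 libraries exceeded that of 42.5% of the 19974 annotated genes in FPKM. The 271 counts of MT2A were 52.6% of the metallothionein total.

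MT1F, a further metallothionein of the cluster, had 27, 35 and 20 counts in the parental libraries and 12, 21 and 16 in the resistant libraries. As CPM this was 0.416 ± 0.135 in Huh7 P and 0.239 ± 0.0580 in Huh7 LR (SD, n = 3), and the CPM levels of the lines did not overlap although the counts did. The log2 fold change was -0.79 (SE 0.42) with an adjusted p of 0.147 by edgeR, and the interval of the fold was 0.308 to 1.09. With single libraries left out it ranged from -0.97 without Huh7 LR replicate 2 to -0.50 without Huh7 P replicate 2 (adjusted p = 0.462). MT1F and MT2A were the 2 members tested whose levels were lower in every Huh7 LR library, and SLC30A1 was the 1 member higher in every Huh7 LR library. Among all features tested, 55.9% showed no overlap between the lines, 28.2% with Huh7 LR higher and 27.7% with Huh7 LR lower.

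For MT1X, the parental libraries held 20, 18 and 11 counts and the resistant libraries 6, 26 and 4. Huh7 LR replicate 2 was the highest of the 6 libraries and the other 2 Huh7 LR libraries were the lowest. The level was 0.246 ± 0.0679 CPM in Huh7 P and 0.174 ± 0.172 CPM in Huh7 LR (SD, n = 3). The log2 fold change was -0.49 (SE 0.65, adjusted p = 0.576 by edgeR). With single libraries left out it ranged from -1.68 without Huh7 LR replicate 2 (adjusted p = 0.0695) to -0.08 without Huh7 LR replicate 3 (adjusted p = 0.939), and it was -0.19 without Huh7 LR replicate 1 (adjusted p = 0.855). MT1X is also the metallothionein whose reads are least certain in origin, because 43.6% of the 50-base windows of its transcripts occurred in a transcript of another gene, compared with 3.27% to 16.5% for the other 7.

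The other 5 metallothionein genes were at or near the limit of detection. MT1E had 8, 2 and 4 counts in parental and 5, 6 and 0 counts in resistant libraries, and the lines overlapped. MT1M had 0, 3 and 0 counts in parental libraries and 0 in every Huh7 LR library, so that no fold can be given. MT1A, MT1G and MT1H had 0 counts in all 6 libraries. Among the annotated genes, 3184 (15.9%) were likewise at 0 throughout. Of the other metallothionein genes in the table, MT1B had 2 counts in a single Huh7 P library, and MT3, MT4 and MT1HL1 were at 0.

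**Figure D1:**
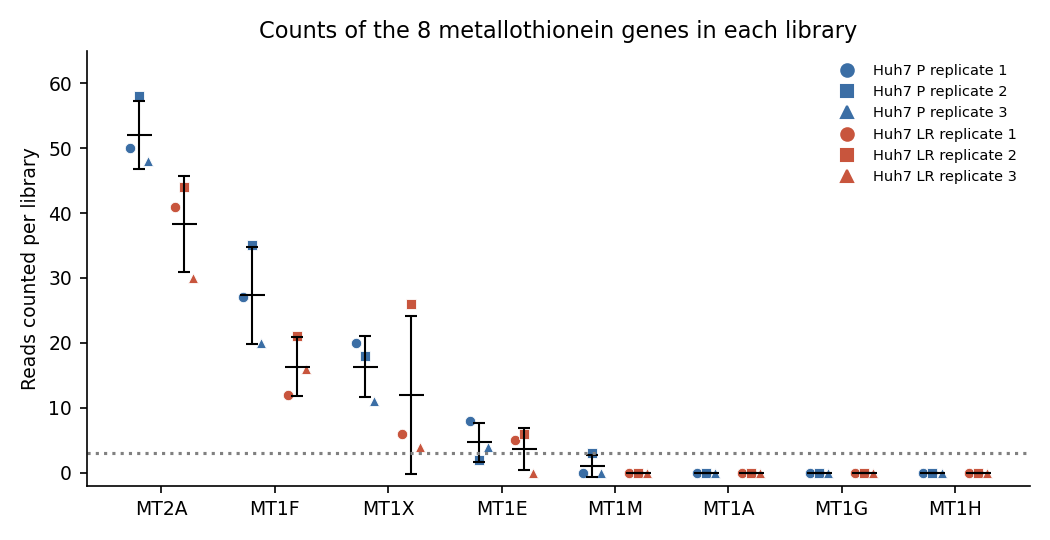
Read counts of the 8 metallothionein genes by library, with Huh7 P and Huh7 LR points for each gene, bars for the mean ± SD (n = 3) and a dotted line at the 3 counts that a count of 0 allows. MT2A, MT1F and MT1X hold 487 of the 515 counts, no library exceeds 58 counts for a gene, and MT1A, MT1G and MT1H lie at 0.

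The order of the mean FPKM levels was MT2A, MT1F, MT1X, MT1E and MT1M, with the other 3 listed at 0. MT2A had 0.914 ± 0.142 FPKM in Huh7 P and 0.665 ± 0.127 FPKM in Huh7 LR (SD, n = 3). MT1F had 0.567 ± 0.191 and 0.326 ± 0.0734 FPKM, and MT1X had 0.472 ± 0.121 and 0.337 ± 0.351 FPKM. MT1F and MT1X, neighbours in this order, overlapped in both lines, and MT1X overlapped MT1E in Huh7 LR. MT2A lay above MT1F in each line by its range, 0.817 to 1.08 against 0.386 to 0.768 FPKM in Huh7 P and 0.518 to 0.739 against 0.247 to 0.392 FPKM in Huh7 LR. No metallothionein reached a mean of 1 FPKM over the 6 libraries.

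Since part of each metallothionein transcript occurred in another gene, so that reads may be assigned to the wrong member, the 8 genes were also summed before the fit. Some of the shared sequence occurred in genes outside the sum, such as MT1P1, MT1P3 and MT2P1. Reads assigned there, or left uncounted, are not in the sum. The sum came to 105, 116 and 83 counts in parental and 64, 97 and 50 counts in resistant libraries. This was 1.54 ± 0.312 CPM in Huh7 P and 1.03 ± 0.329 CPM in Huh7 LR (SD, n = 3), and Huh7 LR replicate 2 lay above the lowest Huh7 P library. The log2 fold change of the sum was -0.57 (SE 0.27) with an adjusted p of 0.110 by edgeR, and the interval of the fold was 0.445 to 1.02. The exact two-sided permutation p was 0.2. Without Huh7 LR replicate 2 the log2 fold change was -0.83 and passed the test (adjusted p = 0.0322), whereas without Huh7 LR replicate 3 it was -0.38 (adjusted p = 0.322).

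MTF1, the zinc-sensing transcription factor, had 1765, 1457 and 1464 counts in parental and 1298, 1449 and 1598 counts in resistant libraries. Its level was 23.5 ± 1.10 CPM in Huh7 P and 21.3 ± 1.84 CPM in Huh7 LR (SD, n = 3), and the lines overlapped. The log2 fold change of -0.14 (SE 0.09) did not pass edgeR's test (adjusted p = 0.222), and the interval of the fold was 0.792 to 1.04. In FPKM it stood at 2.71 ± 0.153 in Huh7 P and 2.50 ± 0.210 in Huh7 LR.

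SLC30A1 was the 1 member that passed the test. It had 1610, 1493 and 1506 counts in parental and 2838, 2602 and 2842 counts in resistant libraries. The lines did not overlap, with Huh7 LR higher at 40.8 ± 3.29 CPM against 23.2 ± 0.896 CPM (SD, n = 3). The log2 fold change was 0.81 (SE 0.08, adjusted p = 2.16e-05 by edgeR), and it was 0.70 to 0.88 under 13 alternatives. The study's stricter rule asked for a change of more than 2-fold at a p under 0.001. By that rule, applied to adjusted p, 0 members were called, while 6.21% of all features were, 4.43% higher and 1.78% lower. In FPKM it rose from 3.89 ± 0.137 to 6.97 ± 0.617, and its mean exceeded that of 60.4% of annotated genes. None of the 50-base windows of its transcripts occurred in another gene.

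**Figure D2:**
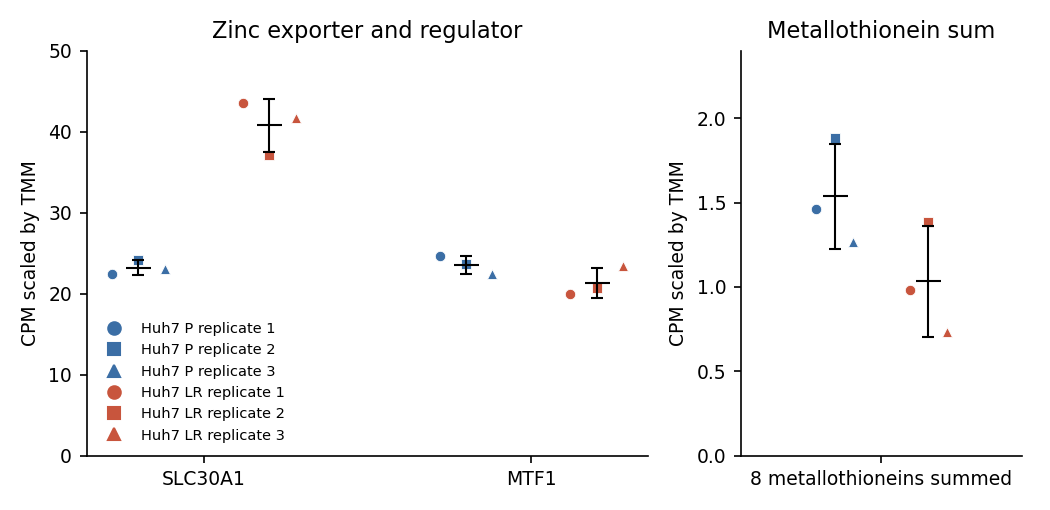
Levels in CPM of SLC30A1, MTF1 and the sum of the 8 metallothionein genes by library, with the mean ± SD (n = 3) of each line. SLC30A1 separates the lines (23.2 against 40.8 CPM), whereas the libraries overlap for MTF1 and for the sum.

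The other members of the SLC30 family, SLC30A2 to SLC30A10, were described next to SLC30A1, together with TMEM163, an exporter outside that family. Of these 10 genes, 7 were tested, all of the SLC30 family, of which 3 were higher and 0 lower in Huh7 LR. Their median log2 fold change was 0.13. SLC30A4, which loads zinc into endosomal vesicles, had 2, 10 and 0 counts in parental and 98, 43 and 81 counts in resistant libraries. It was near the limit of detection in Huh7 P and low in Huh7 LR, with a log2 fold change of 4.13 (SE 0.71, adjusted p = 7.59e-04 by edgeR). With each library left out in turn it was 3.56 to 6.08, the highest value without Huh7 P replicate 2. SLC30A10, known as a manganese exporter, rose from 62.0 ± 2.32 to 89.8 ± 6.26 CPM (log2 fold change 0.53, adjusted p = 1.56e-04). SLC30A5, a zinc transporter of the early secretory pathway, rose from 39.7 ± 2.16 to 46.2 ± 2.59 CPM (log2 fold change 0.22, adjusted p = 0.0358), and this call was lost without Huh7 P replicate 1, 2 or 3 or Huh7 LR replicate 3. SLC30A3, SLC30A6, SLC30A7 and SLC30A9 did not pass, with log2 fold changes from -0.08 for SLC30A3 to 0.13 for SLC30A6.

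Of 14 importers of the SLC39 family, 12 were tested, 5 were higher and 2 lower, with a median log2 fold change of -0.01. SLC39A8, which takes up zinc and manganese, had 659, 702 and 576 counts in parental and 2096, 1916 and 2135 counts in resistant libraries. It rose from 9.79 ± 1.39 to 30.3 ± 2.56 CPM (log2 fold change 1.63, SE 0.11, adjusted p = 1.84e-06 by edgeR). SLC39A4, the zinc importer defective in acrodermatitis enteropathica, had 358, 332 and 367 counts in parental and 81, 91 and 68 counts in resistant libraries. These 2 importers moved in opposite directions, SLC39A4 falling from 5.33 ± 0.315 to 1.18 ± 0.161 CPM (log2 fold change -2.17, SE 0.16, adjusted p = 2.84e-06). With limma-trend on log2(FPKM + 1) its log2 fold change was -1.13. SLC39A11 rose from 21.6 ± 0.667 to 35.6 ± 2.27 CPM (log2 fold change 0.72, adjusted p = 3.56e-05). SLC39A14, the hepatic importer of zinc and iron that inflammation is known to induce, was among the 3 most abundant importers by FPKM, at 66.7 ± 4.20 in Huh7 P and 66.7 ± 1.47 in Huh7 LR, and did not pass the test (log2 fold change -0.03, adjusted p = 0.723).

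**Figure D3:**
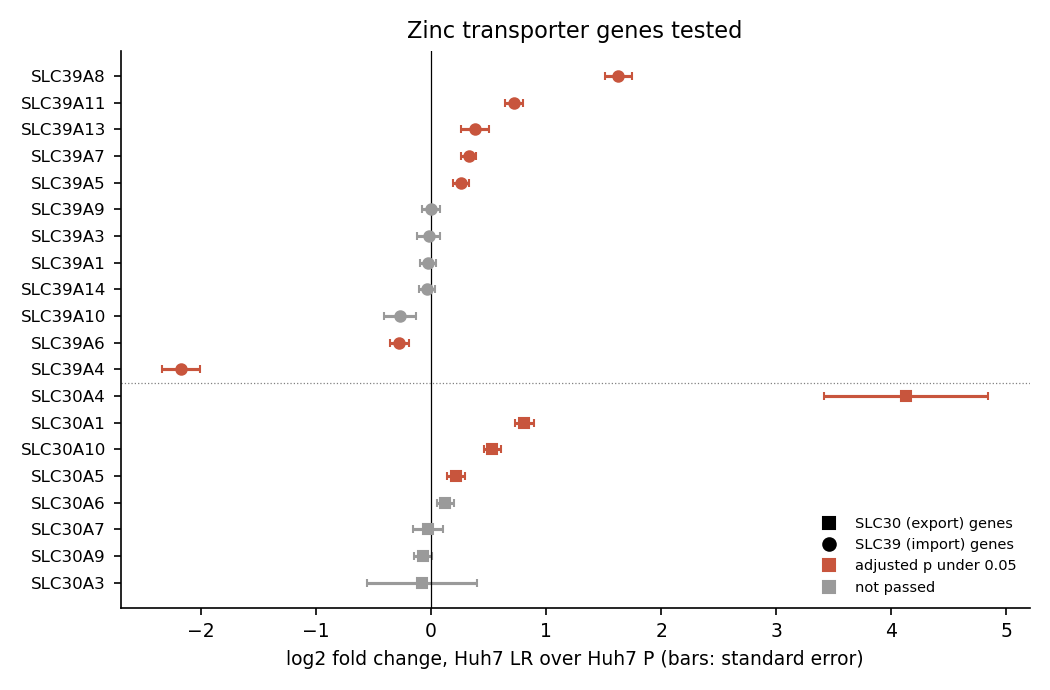
Log2 fold changes (Huh7 LR over Huh7 P) of the tested zinc exporters and importers with their standard errors (n = 3 per line). SLC30A4 (4.13), SLC39A8 (1.63) and SLC30A1 (0.81) lie to the right of 0 and SLC39A4 (-2.17) to the left.

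Other gene groups that are linked to metallothionein induction were counted from lists of known genes. Of 19 rows of copper-handling genes (SCO2 has 2 identifiers), all 19 were tested, 4 were higher and 5 lower, with a median log2 fold change of -0.05. The list also held MTF2 and XIAP, which are not copper transporters or chaperones. Both were among the 5 lower (adjusted p = 0.00380 and 0.0345 by edgeR). CP, the copper-carrying ferroxidase ceruloplasmin, fell from 29.4 ± 3.41 to 13.9 ± 5.07 CPM (adjusted p = 0.00234 by edgeR). SLC31A1, the copper importer, rose from 84.5 ± 6.10 to 127 ± 8.16 CPM (adjusted p = 1.30e-04), and SCO1, a copper chaperone of mitochondria, fell from 141 ± 7.37 to 104 ± 3.49 CPM (adjusted p = 4.30e-04).

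Of 14 genes of the metal and heat stress response, all 14 were tested, 1 was higher and 6 lower, with a median log2 fold change of -0.21. HMOX1, heme oxygenase 1, was the gene that rose, from 23.5 ± 1.53 to 63.5 ± 16.3 CPM (log2 fold change 1.44, adjusted p = 3.23e-05 by edgeR). HSPH1, a heat shock protein, fell from 220 ± 14.7 to 124 ± 9.38 CPM (adjusted p = 1.59e-05), and GCLM, a subunit of the enzyme that starts glutathione synthesis, fell from 42.3 ± 1.02 to 25.0 ± 0.700 CPM (adjusted p = 1.14e-05).

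Of 11 genes of glucocorticoid action, 10 were tested, 5 were higher and 1 lower, with a median log2 fold change of 0.33. The list held target genes, the receptor NR3C1, which was among the 5 higher, and the steroid enzymes HSD11B1 and HSD11B2. SGK1, a serum- and glucocorticoid-regulated kinase, rose from 68.0 ± 4.05 to 162 ± 11.3 CPM (adjusted p = 9.01e-07 by edgeR). DUSP1, a MAP kinase phosphatase, rose from 8.07 ± 0.610 to 15.5 ± 1.21 CPM, whereas FKBP5, a co-chaperone of the glucocorticoid receptor, fell from 23.5 ± 1.70 to 14.3 ± 1.02 CPM. Of 13 genes of the interleukin-6 and STAT3 pathway, 11 were tested, 7 were higher and 1 lower, with a median log2 fold change of 0.54. Its components IL6R and STAT3 were among the 7 higher. The 3 fibrinogen chains led this list, with log2 fold changes of 3.48 for FGA, 2.49 for FGB and 2.42 for FGG. SERPINA3 was the gene that fell (log2 fold change -1.07, adjusted p = 4.83e-04 by edgeR), and IL6ST, SAA1 and LBP did not pass. These list counts stand beside a background of 23.3% higher and 22.4% lower.

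Genes around the metallothionein cluster were measured at ordinary levels. Within 1 Mb of the cluster, the table held 29 genes other than metallothioneins, of which 18 (62.1%) reached a mean of 1 FPKM, compared with 56.1% of all annotated genes. In the same window 0 of 11 metallothionein genes reached it. BBS2, a subunit of the ciliary BBSome, stood at 5.59 FPKM on one side and NUP93, a nuclear pore protein, at 21.1 FPKM on the other. Of the 29 neighbours, 22 were tested, of which 9 were higher, 4 lower and 9 did not pass. The median log2 fold change of those tested was -0.03. Over all features tested, 23.3% were higher and 22.4% lower. NLRC5, a regulator of MHC class I genes, rose from 0.426 ± 0.0965 to 2.14 ± 0.106 CPM (log2 fold change 2.33, adjusted p = 2.16e-05 by edgeR). CES1, the liver carboxylesterase, rose from 30.2 ± 1.81 to 135 ± 2.97 CPM (log2 fold change 2.16, adjusted p = 2.12e-08), and CX3CL1, the chemokine fractalkine, rose from 6.55 ± 0.145 to 18.7 ± 0.441 CPM (log2 fold change 1.51, adjusted p = 8.24e-07).

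**Figure D4:**
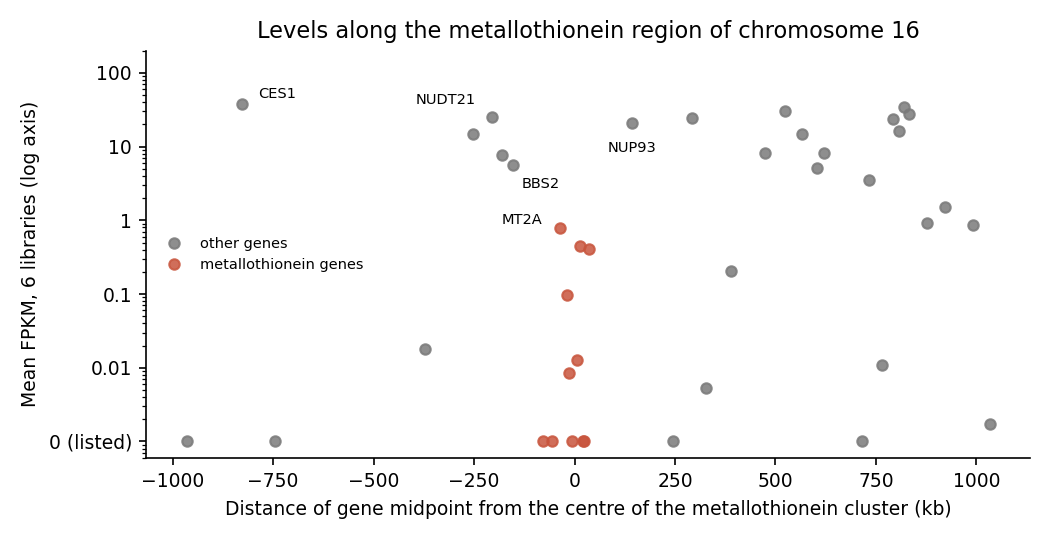
Mean FPKM over the 6 libraries (log axis) of the genes within 1 Mb of the metallothionein cluster, by distance in kb from the middle of the cluster. The metallothionein genes lie below 1 FPKM, while neighbours such as BBS2 (5.59 FPKM) and NUP93 (21.1 FPKM) lie above it.

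Around SLC30A1, the same distance held 15 genes, of which 11 were tested, 2 were higher and 5 lower, with a median log2 fold change of -0.14. Around MTF1 it held 19 genes, of which 15 were tested, 4 were higher and 3 lower, with a median of -0.04. The shares over all features tested were again 23.3% higher and 22.4% lower. The windows around these 2 genes were chosen after their values were seen.

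The genes whose levels followed MT2A most closely across the 6 libraries were HOXD3, CHAC1, NUDT2, AC098588.1 and ZNF442. The measure was the root mean square difference of log2 levels after each gene was centred, over 12216 genes with at least 1 CPM, and it was 0.106 for HOXD3 and 0.114 for ZNF442. The counts of MT2A itself, 30 to 58 per library, limit this ranking.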

How the data were processed

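Each line was represented by 3 poly(A) libraries, which the methods describe as separate samples of TRIzol-extracted RNA. The authors deposited read counts per gene, which are not normalized, and FPKM values, which they scaled by transcript length and library size. The submitters' processing notes name TopHat2, Cufflinks, DESeq and the build mm10 without versions or roles, whereas the identifiers are those of human genes. The labels' extraction text describes an insect. Whether counting used strand is not given in the sources used here. FPKM was not a fixed multiple of the counts.

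The table held 26184 genes and loci, of which 6210 loci had no annotated gene and took 2.86% to 3.35% of the counts, and 34 lines of text were left out. All 19974 annotated identifiers were found in GENCODE 29, which gave the coordinates. Counts were fitted in R 4.3.3 with edgeR 4.0.16 (filterByExpr, minimum count 10, minimum total 15, TMM factors 0.977 to 1.03, quasi-likelihood test, Benjamini-Hochberg adjustment over 17531 features). Errors are SD over 3 samples or SE of the log2 fold change. P-values set a difference against the spread between samples of a single pair of lines. The 8 metallothioneins were also fitted as a single summed feature. DESeq2 1.42.0 and limma 3.58.1 (log2(FPKM + 0.1) and log2(FPKM + 1), for genes at 0.5 FPKM or more in 3 or more libraries) were alternatives. The tests were tested on simulated data with 200 well-counted genes changed by a log2 fold of 1.5. Of these, 96.5% to 97.5% were recovered. At an adjusted p under 0.05, unchanged genes were also called, 12 by edgeR and 22 by edgeR with the replicate block. DESeq2 called 38 unchanged genes and limma-trend 13. No change was planted in genes with mean counts as low as those of the metallothioneins, or of a size as small as theirs. Over all features tested, replicate libraries differed by more than counting noise (mean chi-square per gene 13.5 to 58.9). This mean was not taken for the metallothioneins alone.

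Promoters came from RefSeq (GRCh38.p14). Sequences were searched with Python 3.11.15 and figures drawn with matplotlib 3.10.9. The members, lists and tests were chosen with earlier results of these data known. In each list, and among the neighbours on chromosome 16, the named genes were the 3 with the largest absolute log2 fold change among those past the test with at least 1 CPM in a line. SLC30A3, SLC30A6, SLC30A7, SLC30A9, SLC39A14, SERPINA3, IL6ST, SAA1, LBP, BBS2, NUP93 and the marker genes were named after their values were seen.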

Additional observations from a re-analysis of the deposited data

How the results depend on the processing

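Of the members, SLC30A1 stayed higher (log2 fold change 0.70 to 0.88) and MT1F, MT1X, MT2A and MTF1 stayed negative and short of the threshold under every alternative that tested them (11 for MT1F, 12 for MT1X, 13 for MT2A and MTF1). The count of members higher was 1 throughout, except that it was 0 where a 2-fold change and an adjusted p of 0.001 were required. The metallothionein sum ranged from -0.83 to -0.38 (log2) when each library was left out, with an adjusted p of 0.0322 to 0.341 over its 14 alternatives, and its call appeared without Huh7 LR replicate 2 (-0.83). The neighbours on chromosome 16 that fell numbered 4, and 2 to 5 with a library left out. Alternatives for the lists, the neighbours and the genes outside the members were chosen after seeing the data. The list genes higher numbered 25 (22 to 26 over alternatives) and lower 15 (11 to 17). No value reversed. Among single genes, SLC30A5 lost its call in 4 of 13 alternatives. With the replicate number as a block the sum was -0.60 (adjusted p = 0.0547) and all features gave 4089 higher and 4033 lower calls, compared with 4093 and 3923 without it. Same-numbered libraries correlated at 0.029 to 0.0317 in their deviations, each best with its own number, and the numbers are not known to pair samples. The metallothioneins had no more than 58 counts in a library, which limits the precision of their values.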
